A study of Mus musculus with 6 samples.

Results

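The 5 mouse lysyl oxidases (*Lox*, *Loxl1*, *Loxl2*, *Loxl3*, *Loxl4*) and 5 genes that fold, modify or cleave procollagen (*Serpinh1*, *Crtap*, *Bmp1*, *Pcolce*, *Pcolce2*) were taken by name, through their Ensembl identifiers, and make up 10 of the 22032 genes of the deposited matrix. RNA-seq was performed on 3 embryonic and 3 adult samples of knee cartilage. Embryonic cells came from E16.5 embryos (16.5 wks in the labels) and adult cells from 2 month old male B6 mice, while the sex and strain of the embryos and the number of animals per sample were not given in the sources used here. Cells of both stages were sorted as LIN-ALP-BMPR1B+, that is, without blood, endothelial and alkaline phosphatase markers and with BMPR1B, a bone morphogenetic protein receptor that enriches superficial articular chondrocytes. The question put to each gene was how its transcript level differed between embryonic and adult chondrocytes. The p-value of a gene sets that difference against the spread between same-stage samples, which limma draws toward a trend over all genes tested. Whether this spread is between animals or between pools of animals is not known. Levels are in TPM (transcripts of every 1000000 in a sample, scaled for transcript length), and differences are on the log2(TPM + 1) scale, adult minus embryonic.

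Fibrillar procollagen is made in the endoplasmic reticulum, where chains are hydroxylated and chaperones accompany the triple helix on its way out of the cell. Outside, proteinases remove the propeptides so that molecules can assemble into fibrils, and the lysyl oxidases, secreted copper enzymes, oxidise lysines and hydroxylysines to aldehydes that condense into covalent crosslinks. These crosslinks give cartilage collagen its tensile strength and long life, and lysyl oxidases also crosslink elastin. *Lox* and *Loxl1* encode enzymes with a propeptide that BMP1-type proteinases can remove, whereas *Loxl2*, *Loxl3* and *Loxl4* encode enzymes with scavenger receptor cysteine-rich domains.

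All 10 genes passed the limma threshold (Benjamini-Hochberg adjusted p under 0.05) and the filter of a mean of at least 1 TPM, 3 of them higher in adult (*Lox*, *Loxl4*, *Pcolce2*) and 7 lower. Calls were common across the matrix: of the 13125 genes tested, 45.3% were called, 23.9% higher and 21.4% lower in adult. The balance depended on scaling, with 3140 higher and 2809 lower as deposited, 2614 and 3243 with median-of-ratios scaling, and 3501 and 2530 when rescaled without the 20 highest genes. The stage ranges of all 10 genes did not overlap, as was the case for 56.5% of the genes tested. Their median difference was -1.0, beside 0.16 over all genes tested, and the latter became 0.02 and 0.25 under these other scalings. The size of the difference ranged widely: 3.58% of the genes tested moved further than *Loxl1* and 3.76% further than *Loxl4*, but 68.7% moved further than *Lox*.

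**Figure D1:**
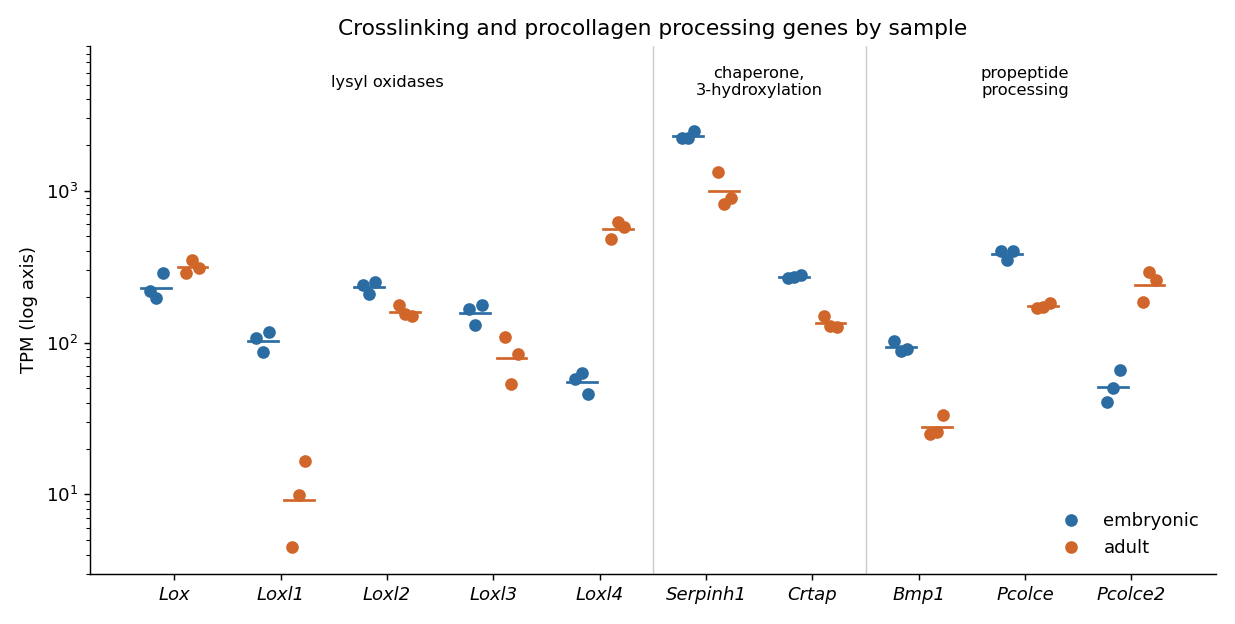
TPM on a log axis of each gene in the 3 embryonic (blue) and 3 adult (orange) samples, with the horizontal line at the mean on the log2(TPM + 1) scale. *Loxl4* and *Pcolce2* lie higher and *Loxl1* lies furthest below in adult samples, whereas the highest embryonic *Lox* value (285 TPM) nearly touches the lowest adult one (287 TPM).

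**Figure D2:**
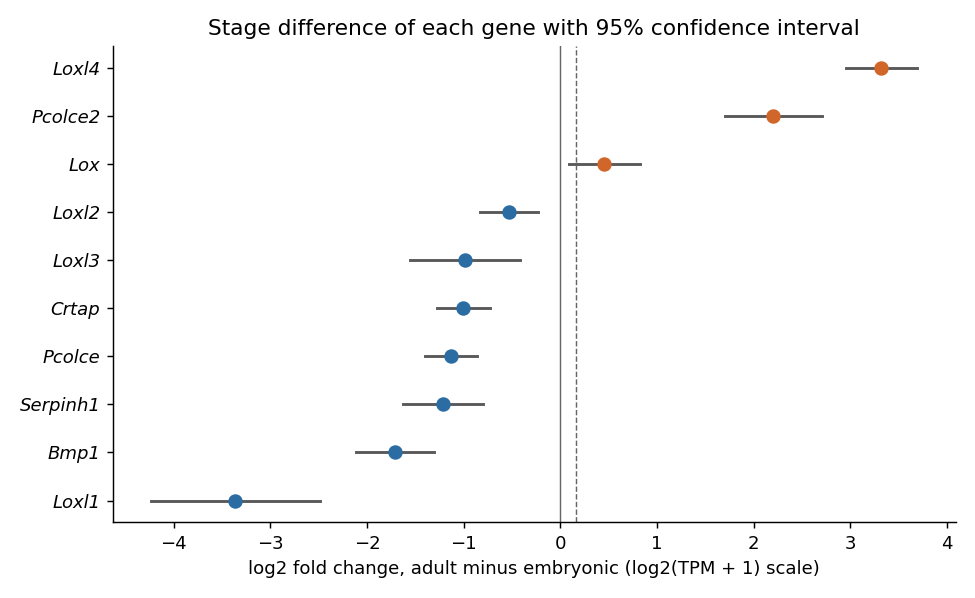
Difference of each gene between stages (adult minus embryonic, log2(TPM + 1) scale) with its 95% confidence interval from limma, ordered by size. The solid line marks 0 and the dashed line the median of all genes tested, 0.16, which lies inside the interval of *Lox* only.

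The cells were checked by marker lists. Summed chondrocyte markers (13 genes, among them *Col2a1*, *Acan* and *Sox9*) reached 25249 to 26755 TPM in embryonic and 9506 to 12642 TPM in adult samples, and none was at 0 throughout a stage. Of these, 8 were lower, 5 of them collagen chains, and *Sox9*, *Sox5* and *Comp* were higher, while *Acan* did not pass (difference 0.61, adjusted p = 0.0717). *Bmpr1b*, whose product was used for sorting, did not pass either (difference -0.76, adjusted p = 0.199). Its levels were 20.3, 19.0 and 16.4 TPM in embryonic and 4.51, 18.5 and 13.4 TPM in adult samples, lowest in adult 1. Endothelial markers summed to 10.9 to 33.3 and 3.79 to 13 TPM, muscle markers to 17.7 to 25.9 and 0.87 to 14.8 TPM, leukocyte markers to 1.41 to 1.6 and 2.64 to 81.3 TPM, and erythroid markers to 7.77 to 257 and 11.9 to 43.6 TPM. Other lists moved with stage. Tendon and fibroblast markers fell from 1146 to 1437 TPM to 466 to 721 TPM, with 7 of 10 lower and 1 higher, and those of smooth muscle and pericytes went from 330 to 353 TPM to 125 to 158 TPM, with 5 of 6 tested lower and *Cnn1* at 0 in every adult sample. Markers of hypertrophic chondrocytes went from 627 to 869 TPM to 3663 to 6036 TPM, with *Spp1* alone at 2368 to 4376 TPM in adult samples. Of the 6 tested, 4 were higher, *Pth1r* was lower (difference -1.06, adjusted p = 0.0182) and *Runx2* was not called (difference -0.72, adjusted p = 0.0659). *Ihh* was at 0.597 to 2.23 TPM in embryonic samples and at 0 in every adult one, and did not pass the filter. Osteoblast markers summed to 34.5 to 39 TPM in embryonic samples, where *Bglap* and *Bglap2* were at 0, and to 53.7 to 177 TPM in adult ones, with 3 of 7 higher (*Bglap*, *Bglap2*, *Alpl*), *Dmp1* lower and 3 not called (*Sp7*, *Ifitm5*, *Phex*). Synovial lining markers went from 199 to 267 TPM to 25706 to 27466 TPM, with 3 of 4 higher and *Cd55* lower (difference -1.06, adjusted p = 0.00306). Nearly all of the adult sum was *Prg4*, at 23818 to 26392 TPM, which superficial chondrocytes also make. *Htra4* rose as well, from 15.6 to 21.5 TPM to 1045 to 1849 TPM (difference 6.19, adjusted p = 3.45e-07). *Clic5* rose from 1.85 to 4.58 TPM to 4.42 to 11.4 TPM (difference 1.36, adjusted p = 0.0485). Fewer cells of a type and less RNA per cell cannot be told apart in bulk samples, and the part of these lists in the differences of the 10 genes was not tested.

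The enzymes share a copper-binding stretch in which 4 histidines stand close together, and it is shown for *Loxl1* to *Loxl4* because it is the part of the enzymes that holds the catalytic copper. Each coding stretch of 36 bases, 5′ to 3′, has its 4 histidine codons in capitals.
Loxl1: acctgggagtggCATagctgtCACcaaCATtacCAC
Loxl2: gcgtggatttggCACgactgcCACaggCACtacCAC
Loxl3: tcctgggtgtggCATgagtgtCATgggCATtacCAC
Loxl4: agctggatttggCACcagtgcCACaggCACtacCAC
In each gene the stretch crosses an exon junction after base 26. On GRCm38 (GENCODE M21) it lies at chr9:58294359-58294384 and chr9:58293720-58293729 on the minus strand in *Loxl1* (exons 3 and 4 of 7), at chr14:69682313-69682338 and chr14:69689028-69689037 on the plus strand in *Loxl2* (exons 10 and 11 of 14), at chr6:83049992-83050017 and chr6:83050116-83050125 on the plus strand in *Loxl3* (exons 10 and 11 of 14), and at chr19:42599877-42599902 and chr19:42598807-42598816 on the minus strand in *Loxl4* (exons 11 and 12 of 15). *Loxl2* and *Loxl4* were identical at 31 of the 36 bases (86.1%) and *Loxl1* and *Loxl3* at 27 (75%), while *Loxl1* matched *Loxl2* and *Loxl4* at 23 (63.9%) each. The pair closest in this stretch, *Loxl2* and *Loxl4*, moved in opposite directions between stages. Even so, no run of 50 bases, the length of the reads, was common to any 2 of the 10 genes, so that a full-length exact read could be assigned among them.

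*Loxl4* (chr19:42593982-42612813, minus strand) had the largest rise. Embryonic samples had 57.9, 63.1 and 45.5 TPM and adult samples 482, 624 and 576 TPM. Every adult sample lay far above every embryonic one, and the gene moved from rank 3426 to rank 217 of all genes by mean level. The difference was 3.32 (SE 0.163, adjusted p = 1.86e-06, limma), 9.98-fold.

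*Loxl1* (chr9:58287738-58313186, minus strand), whose enzyme is best known for elastic fiber upkeep, moved as far in the other direction. Its levels were 107, 86.4 and 118 TPM in embryonic and 4.49, 9.83 and 16.5 TPM in adult samples. The adult samples were all low but differed among themselves more than the embryonic ones (SD 0.84 against 0.23 on the log2(TPM + 1) scale, n = 3 each). The difference was -3.36 (SE 0.382, adjusted p = 0.000198), 10.3-fold lower in adult, and the gene went from rank 1943 to rank 8745.

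*Lox* (chr18:52516067-52529867, minus strand), the founding member of the family and a crosslinker of collagens and elastin, changed least. It was measured at 217, 196 and 285 TPM in embryonic and at 287, 349 and 312 TPM in adult samples. The ranges were barely apart. The difference was 0.45 (SE 0.161, 95% confidence interval 0.09 to 0.82, adjusted p = 0.0466), 1.37-fold higher in adult, and the call was lost under 10 of 16 alternative settings, with an adjusted p of up to 0.161. Leaving out single samples ended it without embryonic replicate 1 (adjusted p = 0.139), embryonic replicate 2 (0.161), adult replicate 2 (0.123) or adult replicate 3 (0.0774).

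*Loxl2* (chr14:69609068-69695834, plus strand), whose enzyme also crosslinks type IV collagen, was at 238, 208 and 251 TPM in embryonic and at 177, 154 and 150 TPM in adult samples. All adult values were lower, by a modest amount. The difference was -0.53 (SE 0.132, adjusted p = 0.0108), 1.45-fold lower. Of the 50-base runs of its transcripts 45.0%, and 91.6% of those in its coding sequence, were also present in other genes annotated in GENCODE M21. The number of such genes, 389, is over whole transcripts and not the coding sequence alone. A read from such a run matches more than 1 gene of that annotation, which can limit the level and share of *Loxl2*. The paper names RefSeq annotations for its mapping, and an effect on the deposited value of *Loxl2* was not tested. The antisense gene *Gm27177* overlaps it over 74219 bases on the opposite strand and is not in the matrix used here. It ends at chr14:69683286, before exon 11 (from chr14:69689028). Shared runs were not counted gene by gene. Because the sources used here do not state that counting used strand, reads of a gene and of its antisense partner cannot be told apart.

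*Loxl3* (chr6:83034173-83052562, plus strand), required in mice for the development of the palate and spine, was at 167, 131 and 178 TPM in embryonic and at 109, 53.2 and 84.1 TPM in adult samples. The stages did not overlap, with adult 1 closest to the embryonic values. The difference was -0.99 (SE 0.251, adjusted p = 0.0118), 1.99-fold lower. Only 8.54% of its 50-base runs were present in another gene, *Htra2* on the opposite strand, and none of these lay in the coding sequence. Without embryonic replicate 3 the adjusted p became 0.0503 for *Loxl2* and 0.0509 for *Loxl3*.

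The order of the 5 enzymes was rearranged. In embryonic samples *Lox* and *Loxl2* led with overlapping ranges, followed by *Loxl3*, *Loxl1* and *Loxl4*, each below the one before in every sample. In adult samples *Loxl4* came first and *Loxl1* last, with *Lox*, *Loxl2* and *Loxl3* between in that order and no overlap between neighbours. The summed level of the 5 genes was 786.9, 684.9 and 878 TPM in embryonic and 1060, 1190 and 1139 TPM in adult samples, 1.44 times higher on average (exact two-sided permutation p = 0.1, the smallest that 3 against 3 samples allow).

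As a share of that sum, *Loxl4* went from 7.25% ± 2.02 to 49.5% ± 3.57 (SD, n = 3 each). *Loxl1* accounted for 13.2% ± 0.523 of embryonic and 0.898% ± 0.514 of adult lysyl oxidase TPM. For *Loxl2* the share was 29.7% ± 0.994 and then 14.3% ± 2.1, and for *Loxl3* 20.2% ± 1.03 and then 7.38% ± 2.91. Shares of these 4 genes did not overlap between stages, and each gave the smallest exact permutation p of 0.1 (0.125 adjusted over the 5 shares). The share of *Lox* was 29.6% ± 2.55 and 27.9% ± 1.23, with ranges of 27.6 to 32.4% and 27.1 to 29.3% that overlap (difference -1.63 percentage points, exact permutation p = 0.5, 0.5 after adjustment). That difference was -0.186 without embryonic replicate 3 and -2.6 without embryonic replicate 1.

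**Figure D3:**
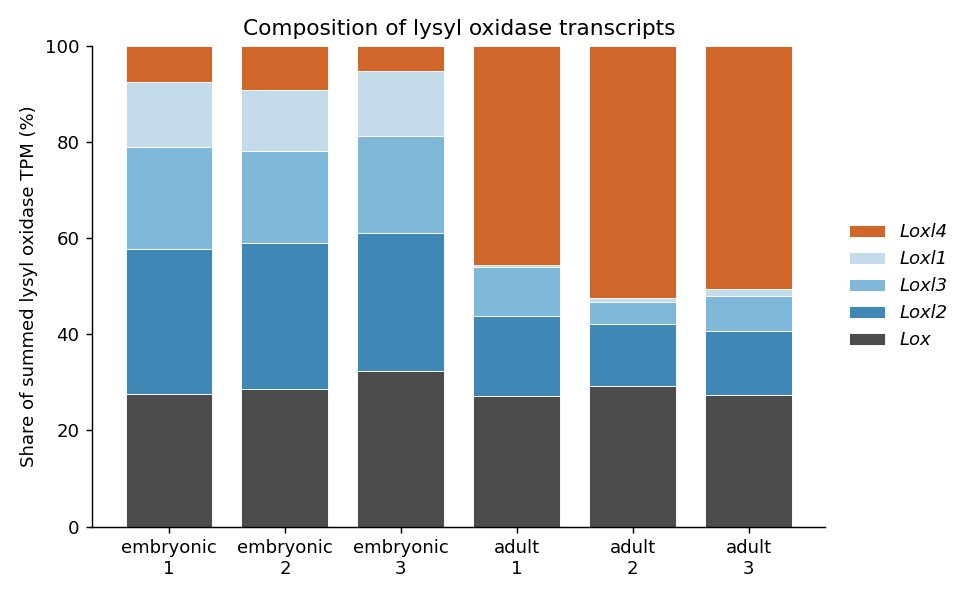
Share of each lysyl oxidase in the summed TPM of the 5 genes, in percent, as 1 stacked bar per sample. *Loxl4* takes 5.18 to 9.21% of the embryonic and 45.5 to 52.4% of the adult bars, *Loxl1* shrinks to 1.44% or less, and *Lox* stays between 27.1 and 32.4% in all 6.

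*Serpinh1* (chr7:99345376-99353239, minus strand) encodes HSP47, the collagen-specific chaperone that binds the triple helix in the endoplasmic reticulum. It was the most abundant of the 10 genes in both stages, with 2216, 2221 and 2468 TPM in embryonic and 1328, 821 and 893 TPM in adult samples. Adult values were lower throughout, and adult 1 stood above the other two. The difference was -1.21 (SE 0.182, adjusted p = 0.000887), 2.32-fold lower, a move from rank 37 to rank 103 of all genes.

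*Crtap* (chr9:114375134-114390675, minus strand) encodes the cartilage-associated protein, which forms with prolyl 3-hydroxylase 1 (*P3h1*) and cyclophilin B (*Ppib*) the complex that 3-hydroxylates fibrillar collagen chains. Its levels were 267, 269 and 278 TPM in embryonic and 149, 129 and 127 TPM in adult samples. The embryonic samples were close to each other and all adult samples lay below them. The difference was -1.01 (SE 0.122, adjusted p = 0.000274), 2.01-fold lower.

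Its partners moved with it. *P3h1* was at 187, 133 and 208 TPM in embryonic and 73.4, 51.5 and 59.7 TPM in adult samples (difference -1.49, SE 0.204, adjusted p = 0.000523). *Ppib* was at 880, 1001 and 1111 TPM and then at 630, 384 and 522 TPM (difference -0.98, SE 0.185, adjusted p = 0.00291). The 3 subunits of the complex were thus lower in every adult sample. The related hydroxylase *P3h2* rose, from 85.1 to 99.6 TPM to 408 to 854 TPM (difference 2.67, adjusted p = 5.35e-05), whereas *P3h3* fell, from 305 to 324 TPM to 54.5 to 95.2 TPM (difference -2.02, adjusted p = 9.63e-05).

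*Bmp1* (chr14:70474558-70520234, minus strand) encodes the proteinase that cleaves the C-propeptides of procollagens, in spite of its name no BMP ligand. It stood at 103, 87.5 and 91.3 TPM in embryonic and at 25.1, 25.9 and 33.1 TPM in adult samples. The stages were well apart, with little spread within either. The difference was -1.71 (SE 0.176, adjusted p = 0.000114), 3.28-fold lower, and the rank went from 2136 to 5777. Its relative *Tll1* was at 4.89 to 7.53 TPM in embryonic and 10.6 to 11.9 TPM in adult samples, a difference of 0.83 that did not pass (adjusted p = 0.0669).

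*Pcolce* and *Pcolce2* encode procollagen C-proteinase enhancers, glycoproteins that bind the procollagen and speed its cleavage by BMP1. *Pcolce* (chr5:137605103-137613784, minus strand) was at 400, 349 and 398 TPM in embryonic and at 168, 172 and 183 TPM in adult samples. *Pcolce2* (chr9:95637601-95698096, plus strand) was at 40.8, 50.1 and 65.8 TPM in embryonic and at 184, 290 and 259 TPM in adult samples. The paralogs moved in opposite directions with no overlap in either. The difference was -1.13 for *Pcolce* (SE 0.118, adjusted p = 0.000122, 2.19-fold lower). It was 2.20 for *Pcolce2* (SE 0.223, adjusted p = 0.000104, 4.61-fold higher).

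For each TPM of *Pcolce* there were 0.102, 0.143 and 0.165 TPM of *Pcolce2* in embryonic samples and 1.10, 1.68 and 1.41 TPM in adult samples. *Pcolce2* was thus the minor enhancer transcript in each embryonic sample and the major one in each adult sample, a 10.3-fold shift of the ratio (exact permutation p = 0.1, 0.117 adjusted over 7 ratios). Their sum differed little, at 441.1, 399.4 and 464.1 TPM and then 351.4, 461.9 and 441.7 TPM, with overlapping ranges (exact permutation p = 0.7). *Pcolce* exceeded *Bmp1* 3.89 to 4.36 times in embryonic and 5.52 to 6.66 times in adult samples (exact permutation p = 0.1, 0.117 adjusted).

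RefSeq (GRCm38.p6) gave promoters, 250 bases before to 50 after the start, for 5 of the 10 genes (*Crtap*, *Loxl4*, *Pcolce*, *Pcolce2*, *Serpinh1*). Those of the 2 genes that rose most and of *Pcolce*, the paralog that fell, are shown 5′ to 3′ on the strand of the gene, with each GC box (GGGCGG on either strand) in capitals.
Loxl4 (chr19:42612757-42613056, minus strand): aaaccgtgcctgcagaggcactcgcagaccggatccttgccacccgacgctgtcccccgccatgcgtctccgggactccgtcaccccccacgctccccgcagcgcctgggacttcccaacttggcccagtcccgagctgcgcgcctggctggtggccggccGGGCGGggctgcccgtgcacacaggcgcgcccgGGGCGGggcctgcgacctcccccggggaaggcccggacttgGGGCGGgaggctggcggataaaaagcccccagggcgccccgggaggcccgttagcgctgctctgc
Pcolce2 (chr9:95637378-95637677, plus strand): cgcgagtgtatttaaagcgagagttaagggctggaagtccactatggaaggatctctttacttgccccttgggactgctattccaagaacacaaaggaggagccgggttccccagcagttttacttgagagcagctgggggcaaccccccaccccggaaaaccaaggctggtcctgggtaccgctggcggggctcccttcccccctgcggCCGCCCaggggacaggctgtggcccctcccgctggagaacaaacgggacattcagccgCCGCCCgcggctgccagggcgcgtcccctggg
Pcolce (chr5:137611355-137611654, minus strand): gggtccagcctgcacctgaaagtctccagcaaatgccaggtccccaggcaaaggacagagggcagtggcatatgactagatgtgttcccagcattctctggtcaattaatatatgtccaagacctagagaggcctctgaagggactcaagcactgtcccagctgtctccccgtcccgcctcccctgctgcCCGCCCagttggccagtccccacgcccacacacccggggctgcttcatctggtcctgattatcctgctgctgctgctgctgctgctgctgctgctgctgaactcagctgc
The *Loxl4* promoter held 3 GC boxes and 75% G and C, and that of *Pcolce2* held 2 and 63.7%. *Pcolce*, *Crtap* and *Serpinh1* held 1 each, with 59.3%, 58.3% and 62.3% G and C. Over all 32851 promoters of that length the median was 52.7% G and C, and 35.7% held a GC box, so genes that rose and genes that fell both carried a common element. The CCAAT box (CCAAT, 37.4% of promoters), the AP-1 site (TGACTCA, 5.2%) and a SOX core (ACAATG, 12.6%) were not found in these 5 windows on either strand, TATAAA (13.6%) was found once, in *Crtap*, and ACGTG, a hypoxia response core (19.6%), once, in *Serpinh1*. A match is a description of letters and not a bound site. The *Pcolce* window lies inside the gene bounds given above, so the RefSeq start used for it is not the outer 5′ end of that gene model.

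The collagen substrates fell by more, at the median, than the 10 genes that process them. All 11 fibril-forming collagen chains were lower in adult samples (median difference -2.41, beside 0.16 over all genes tested). *Col3a1* went from 4518 to 5122 TPM to 148 to 395 TPM (difference -4.17, adjusted p = 1.92e-05), and *Col1a1* from 4862 to 5971 TPM to 170 to 637 TPM (difference -3.75, adjusted p = 0.000221). *Col1a2*, the partner chain of *Col1a1*, differed by -2.51 (adjusted p = 6.9e-05), and *Col2a1*, the chain of the main cartilage collagen, by -1.73 (adjusted p = 0.00107). Summed over the 11 chains the level was 35938, 33682 and 37833 TPM in embryonic and 9702, 6758 and 7359 TPM in adult samples, 4.51-fold lower in adult. Tendon and fibroblast markers, whose values are given above, fell alongside collagens I and III, and their part in this was not tested.

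Ratios to that sum were higher in adult samples for most of the processing transcripts, but lower for *Loxl1* and overlapping between stages for *Bmp1*. The sum itself was 4.51-fold lower in adult, so a transcript at an equal level in both stages would also have a higher ratio. Only a gene that fell by more than the sum would have a lower one. In either direction, 11.1% of the genes tested moved further than *Pcolce2*, which moved 4.61-fold. A higher ratio is thus not particular to these genes. For each 100 TPM of collagen chains, the 5 lysyl oxidases had 2.19, 2.03 and 2.32 TPM in embryonic and 10.9, 17.6 and 15.5 TPM in adult samples, a 6.61-fold higher ratio. *Loxl1*, taken alone after its values were seen, went the other way, from 0.298, 0.257 and 0.312 to 0.0463, 0.145 and 0.224 TPM, while *Loxl4* went from 0.161, 0.187 and 0.12 to 4.97, 9.23 and 7.83 TPM. The 2 enhancers together had 1.23, 1.19 and 1.23 TPM and then 3.62, 6.83 and 6.0 TPM, a ratio 4.37-fold higher. *Crtap* went from 0.743, 0.798 and 0.734 to 1.54, 1.90 and 1.72 TPM (2.26-fold) and *Serpinh1* from 6.17, 6.59 and 6.52 to 13.7, 12.1 and 12.1 TPM (1.97-fold). For these 4 ratios no adult sample fell into the embryonic range, with the smallest exact permutation p of 0.1 for each (0.117 adjusted over 7 ratios). *Bmp1* was different in that its ratio overlapped between stages, at 0.287, 0.26 and 0.241 and then 0.259, 0.384 and 0.45 TPM (1.36-fold, exact permutation p = 0.3, 0.3 adjusted). Adult 1 alone lay in the embryonic range, and the log2 difference of 0.44 became 0.67 without adult replicate 1 and 0.27 without adult replicate 3. Leaving *Col2a1* out of the sum raised the log2 difference of the *Bmp1* ratio, over all 6 samples, to 0.97. The *Bmp1* ratio then no longer overlapped between stages, whereas that of *Loxl1* did, with adult 3 inside the embryonic range. The *Bmp1* exception thus depended on *Col2a1* being in the sum. For *Loxl1* only the separation of the ranges did, since *Loxl1* was 10.3-fold lower in adult and the sum without *Col2a1* 6.53-fold lower.

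**Figure D4:**
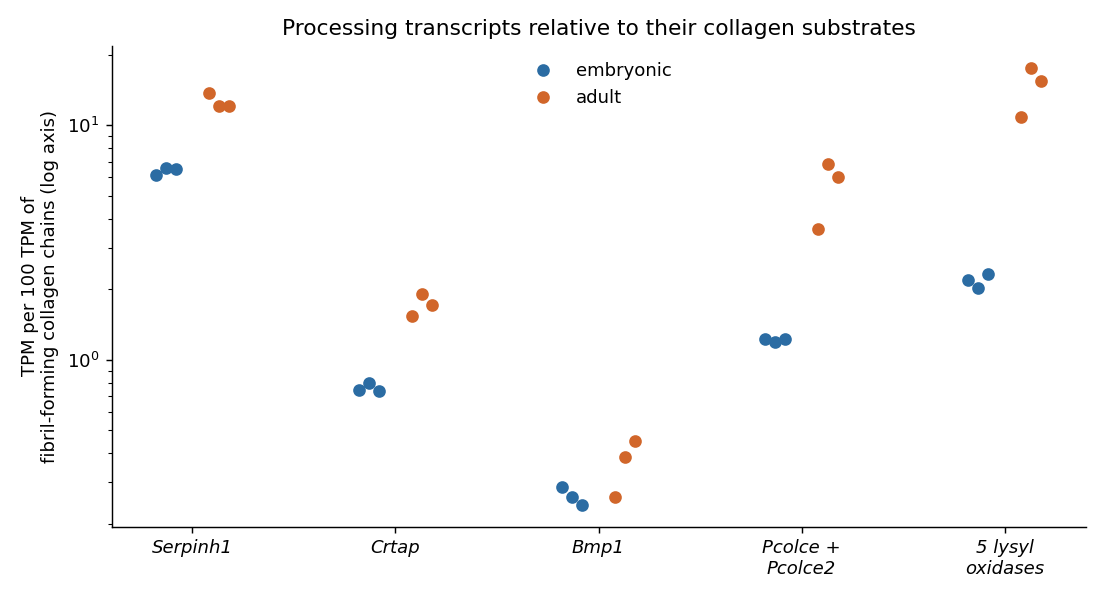
TPM of *Serpinh1*, *Crtap*, *Bmp1*, both enhancers and all lysyl oxidases for each 100 TPM of the 11 fibril-forming collagen chains, on a log axis, in the 3 embryonic (blue) and 3 adult (orange) samples. Adult points lie above embryonic ones in all but *Bmp1*, where the lowest adult ratio (0.259) falls within the embryonic range (0.241 to 0.287).

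Adult 1 stood at one end of the adult range for each of the 10 genes. It was highest for *Loxl2*, *Loxl3*, *Serpinh1* and *Crtap*, 4 of the 7 genes that were lower in adult, and lowest for *Lox*, *Loxl4* and *Pcolce2*, the 3 that were higher, as well as for *Loxl1*, *Bmp1* and *Pcolce*. It also had 7084 TPM of *Col2a1* beside 3166 and 3869 TPM in the other adult samples, and the lowest *Col1a1* (170 TPM beside 603 and 637). The highest adult sums of leukocyte markers (81.3 TPM) and of muscle markers (14.8 TPM) were those of adult 1. *Lyz2* was at 30.7 TPM in it, beside 0.706 and 8.14 TPM, whereas *S100a8* was at 36.4 TPM and higher in adult 3 (41.5 TPM). The part of these in the values of adult 1 was not tested. Without adult replicate 1 all 10 genes were still called. Embryonic 3 was highest for 7 of the 10 genes and embryonic 2 lowest for 6.

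Genes that work with the 10 members or serve as their further substrates were counted by role. Without the collagen chains, 65 of 71 listed genes were tested, of which 11 were higher and 33 lower in adult samples, 67.7% called beside 45.3% of all genes (median difference -0.40). Among the 14 partners in the endoplasmic reticulum 3 were higher and 7 lower (median -0.63). *Fkbp7*, a peptidyl-prolyl isomerase, fell from 143 to 180 TPM to 9.91 to 35 TPM (difference -3.10, adjusted p = 0.000275). *Tmem38b*, a cation channel of the endoplasmic reticulum that is mutated in osteogenesis imperfecta, was at 1.47 to 3.32 TPM and rose to 9.42 to 24.5 TPM (difference 2.20, adjusted p = 0.00419).

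Of the 9 hydroxylases and glycosyltransferases, which prepare the lysines that lysyl oxidases act on and the prolines that hold the helix, 2 were higher and 4 lower (median -0.25). *Plod2*, the lysyl hydroxylase of the collagen telopeptides, rose from 181 to 189 TPM to 319 to 398 TPM (difference 0.99, adjusted p = 0.00036). *Colgalt2*, a galactosyltransferase of hydroxylysine, rose from 19.4 to 27.8 TPM to 48.2 to 148 TPM (difference 1.98, adjusted p = 0.00272). Other lysine-modifying genes of the list did not follow: *Plod1* and *Colgalt1* were lower (differences -0.39 and -0.49, adjusted p = 0.034 and 0.044), and *Plod3* did not pass (difference 0.20, adjusted p = 0.309). *P4ha3*, a catalytic subunit of prolyl 4-hydroxylase, fell from 177 to 200 TPM to 0.7 to 4.47 TPM (difference -6.04, adjusted p = 9.83e-06), and *P4hb*, the subunit common to these enzymes, differed by -1.16 (adjusted p = 0.000338).

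Procollagen export had the smallest median difference of these lists, with 1 of 11 genes higher and 4 lower (median -0.19), 45.5% called and so near the 45.3% of all genes. *Mia2*, whose product helps load bulky cargo at exit sites, was the gene that rose (difference 0.45, adjusted p = 0.047). *Creb3l1* and *Creb3l2*, transcription factors of secretory capacity, differed by -1.25 (adjusted p = 0.00126) and -1.06 (adjusted p = 0.000919).

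Among the other procollagen proteinases, 4 of 7 were tested and 2 were lower, both of them N-proteinases, which cut the other end of the procollagen. *Adamts3*, which also activates VEGFC, was at 47.1 to 56.7 TPM in embryonic samples, and in adult samples it was listed at 0 in 2 and at 1.09 TPM in 1 (adjusted p = 2.05e-05). *Adamts14* went from 14 to 17.6 TPM to 0.201 to 2.84 TPM (adjusted p = 0.00183). *Adamts2*, the N-proteinase of collagen I in skin, overlapped between stages at 32.0 to 53.7 and 33.7 to 50.9 TPM (difference -0.00, adjusted p = 0.996). *Tll2*, *Mep1a* and *Mep1b* did not pass the filter.

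Elastic fiber genes, the other substrates of lysyl oxidases, were 9 lower and 0 higher of 11 (median -3.17). *Eln*, which encodes elastin, was at 494 to 666 TPM in embryonic and at 0.428 to 4.31 TPM in adult samples (difference -7.92, adjusted p = 4.44e-06). *Mfap2*, a microfibril glycoprotein, was at 506 to 629 TPM and then listed at 0 in 2 adult samples and at 1.66 TPM in the third (adjusted p = 1.06e-06). *Loxl1* therefore fell together with elastin. *Fbln5* and *Efemp2*, the fibulins that tether lysyl oxidases to elastin, did not pass (differences -0.24 and -0.19, adjusted p = 0.445 and 0.563).

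Other substrates and partners of BMP1 were 4 higher and 7 lower of 13 tested (median -0.36). *Dcn*, decorin, rose from 217 to 326 TPM to 5026 to 6348 TPM (difference 4.44, adjusted p = 5.8e-07), and *Fn1*, fibronectin, from 1697 to 2071 TPM to 10747 to 11394 TPM (difference 2.50, adjusted p = 3.37e-06). *Postn*, periostin, which enhances the activation of LOX by BMP1, fell from 1458 to 1700 TPM to 9.93 to 26.3 TPM (difference -6.44, adjusted p = 1.19e-06). *Ogn*, osteoglycin, fell from 121 to 174 TPM to 7.66 to 27.9 TPM (difference -3.37, adjusted p = 0.000238).

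Copper reaches the secreted enzymes through a chaperone and a Golgi pump. The chaperone gene *Atox1* rose from 24.3 to 70.0 TPM to 247 to 280 TPM (difference 2.52, adjusted p = 0.000413), while the pump gene *Atp7a* (12.4 to 22.4 TPM over all samples, difference -0.38, adjusted p = 0.287) and the importer gene *Slc31a1* (difference -0.40, adjusted p = 0.285) did not pass.

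**Figure D5:**
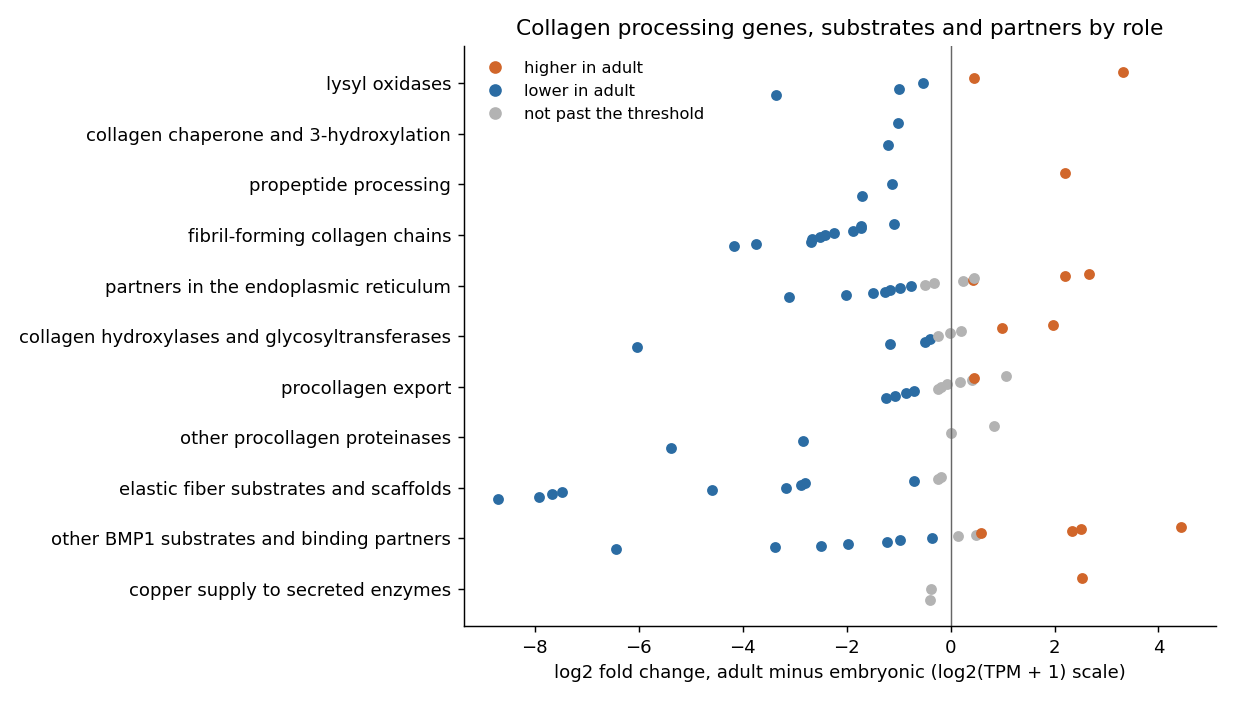
Difference of each tested gene between stages (adult minus embryonic, log2(TPM + 1) scale), by role, 1 point a gene, with genes called higher in adult in orange, called lower in blue and not called in grey. All 11 fibril-forming chains lie below 0, and elastic fiber genes reach furthest down, while lysyl oxidases lie on both sides.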

How the data were processed

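RNA-seq was available for 3 embryonic and 3 adult mouse samples. The authors mapped single-end reads of 50 bases to GRCm38, ran RSEM for TPM per gene and deposited these on the log2(TPM + 1) scale. The version of RSEM is not given in the sources used here. The kit is Kapa mRNA-Seq in the labels, but Nugen Ovation for cDNA with Kapa LTP for libraries in the methods. TPM keeps no depth, so that the depth behind a value is unknown here and its precision rests on the spread between 3 samples. The columns each sum to 1000000 TPM, and 7314 to 8294 genes per sample were at 0.

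Identifiers were matched to GENCODE M21 (21902 with a symbol, 130 without). Genes averaging 1 TPM or more (13125) were fitted with limma 3.58.1 in R 4.3.3 (lmFit, eBayes with trend, stage only) on log2(TPM + 1), at a Benjamini-Hochberg adjusted p under 0.05 over all of them. The procedure was tested on simulated data in which few genes changed. No shift of scaling between stages was simulated, so the dependence on scaling was not covered by it. EBSeq, named in the methods, was not used, since it needs counts. Shares and ratios were compared by exact two-sided permutation tests. Folds are powers of the log2(TPM + 1) difference and understate changes of low genes. Python 3.11.15 (numpy 2.4.6, pandas 2.3.3, matplotlib 3.10.9) served for all other steps.

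The members, the gene lists and the tests were chosen with earlier results of these data known. By rule, all 10 members, up to 2 genes with the largest called change in each direction of each list, and direct partners (*P3h1*, *Ppib*, *Col1a1*, *Col1a2*, *Col2a1*, *Col3a1*, *Tll1*, *Adamts2*, *Adamts3*, *Adamts14*, *Eln*) were named. Genes that complete a count of 5 or fewer, *Plod1*, *Plod3* and *Colgalt1* beside their relatives, and the marker genes were named after their values were seen. Alternatives covered the pseudocount, filter, scaling, variance model, threshold, replicate block, leaving out each sample and the collagen sum.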

Additional observations from a re-analysis of the deposited data

How the results depend on the processing

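No member changed direction under any of the 16 alternatives to the limma fit, and 7 to 10 of the 10 were called under each. *Lox* lost its call in 10 of the 16 (adjusted p 0.02 to 0.161), *Loxl2* in 3 (0.00306 to 0.0546) and *Loxl3* in 2 (0.00424 to 0.0509). With an adjusted p under 0.01, 3718 genes were called, 1855 higher and 1863 lower. With quantile normalization the log2 difference of the ratio to collagen chains was 1.49 for *Serpinh1*, 1.6 for *Crtap*, 2.53 for both enhancers and 3.15 for the lysyl oxidases, and that of *Pcolce* to *Bmp1* was 0.78. With *Col2a1* left out of the chains these were 1.51, 1.71, 2.66 and 3.25, and 0.97 for *Bmp1*. For the ratios the cause was not tested beyond the change of the sum itself. Deviations of samples with the same replicate number had correlations close to 0 (-0.0088, -0.0169 and -0.0223), so the numbers were not taken to pair samples. With the replicate number as a block, 5430 genes were called in place of 5949, and 9 members, without *Lox* (difference 0.45, adjusted p = 0.0701). Exact permutation tests of 3 against 3 samples cannot go below 0.1, which limits every statement on shares and ratios. Depth is not known from these values, so low levels have no counting error attached.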
